A study of Mus musculus with 16 samples.

Results

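The leucine, serine and selenocysteine tRNAs are the tRNAs whose variable arm, the stretch between the anticodon stem and the T stem, is long enough to fold into a stem of its own. They were taken from the brain table as the rows whose name held tRNA-Leu-, tRNA-Ser- or tRNA-SeC-, and came to 53 of 18488 rows. The rule used names only, but it was set with earlier results of these data known. Row names give the amino acid, the anticodon, the isodecoder number (1 number per mature sequence in this naming scheme) and the gene copy. Of the 53 rows, 10 fell into 4 sets with the same value in every library, which left 47 distinct rows of 35 isodecoders. Their 24 distinct leucine rows, 22 distinct serine rows and 1 selenocysteine row are described here, beside the 395 rows of other tRNAs.

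The study profiled small RNA from the prefrontal cortex of PS19 mice and wild-type (WT) mice to ask which non-coding RNAs differ in abundance with tau pathology. The PS19 mice were labelled PS19+/-, that is, heterozygous for a mutant human tau (MAPT) transgene driven by the mouse prion protein promoter. The WT mice did not carry it. Each genotype was represented by 8 libraries from separate mice of a single age late in the course of the model, with males and females in equal number per the study's methods, and the labels gave neither the sex nor a treatment of any library. Libraries are named by genotype and replicate number.

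Transfer RNAs bring amino acids to the ribosome, and the 3 bases of the anticodon decide which codons each tRNA reads. Seryl-tRNA synthetase recognises the long variable arm itself, and it also charges the selenocysteine tRNA with serine, which is then converted to selenocysteine and inserted at recoded UGA stop codons of selenoproteins such as glutathione peroxidases. Leucine and serine are each encoded by many codons, so their tRNAs come in several anticodon families. tRNAs are also cut into shorter fragments, in brain as in other tissues. The table gave 1 value per tRNA gene and no position of the reads along it, so full-length tRNA and fragments cannot be told apart here.

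Sequences of a pair of leucine genes are shown to make the long arm visible. Capitals mark the anticodon and, after it, the variable arm. The RefSeq annotation of GRCm38.p6 listed 47 leucine and serine tRNA genes under symbols that start with n-TL or n-TS, and the gene positions are from it. The leucine genes were n-TLtaa3, shown over chr10:12922574-12922653 on the minus strand (80 of its 83 bases, from the 5′ end) and lying in an exon of the long non-coding RNA B230208H11Rik, with its sequence from GENCODE M21 transcripts, and n-TLaag4, shown over chr7:120917528-120917598 on the plus strand (71 of its 82 bases, to the 3′ end). The n-TLaag4 bases lay in the RefSeq promoter window of Polr3e, which encodes a subunit of RNA polymerase III, the polymerase that transcribes tRNA genes.
n-TLtaa3: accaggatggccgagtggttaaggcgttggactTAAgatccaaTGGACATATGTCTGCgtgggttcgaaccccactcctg
n-TLaag4: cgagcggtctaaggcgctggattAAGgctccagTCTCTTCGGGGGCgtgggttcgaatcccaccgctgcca

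The arm spanned 15 bases in n-TLtaa3 and 13 in n-TLaag4. The files do not pair these RefSeq genes with single rows of the table, only by anticodon.

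Of the 47 RefSeq genes, 25 were leucine and 22 serine genes, and 42 were 82 or 83 bases long. The median over 355 genes of tRNAs with a short arm was 72 bases. The 4 Leu-CAA genes spanned 105 to 107 bases, since they hold an intron, and the single Ser-GGA gene, n-TSgga1, spanned 73. Chromosome 13 held 19 of the 47, between bases 21170036 and 23521951. Numbers of rows and RefSeq genes were the same for Leu-CAG (10), Leu-CAA (4), Leu-AAG (5), Leu-TAG (3), Ser-GCT (8), Ser-CGA (3) and Ser-TGA (3), whereas Leu-TAA had 7 rows against 3 genes and Ser-AGA 8 rows against 7.

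Libraries held 13.2 M to 23.1 M recovered reads, of which tRNA rows took 25.3% to 52.5%. The neuronal miR-124-3p was between 5333 and 20737 normalized read counts in every library, and the red blood cell miR-451a between 1.90 and 40.1. Of the myeloid markers, miR-223-3p reached 4.34 in PS19 and 8.97 in WT, and miR-142a-3p 11.8 and 3.02. Of the oligodendrocyte markers, miR-219a-5p was at or below 10.7 and miR-338-3p between 26.9 and 114. The liver miR-122-5p was at 132 to 654 and the skeletal muscle miR-206-3p at 95.1 to 1950 in cortex of both genotypes. The other skeletal muscle marker, miR-133a-3p, was far lower, at 1.90 to 50.6. The part of liver and muscle markers in the results was not tested. Each library also carried a code, and its initial was G for every PS19 library (8) and for WT 2 and WT 4, F for 4 WT and A for 2 WT libraries. The meaning of the initial was not stated.

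Long-arm rows were a small part of the tRNA signal. Over distinct rows they held 0.208% to 0.621% of it, and 13419 to 26696 recovered reads per library. Leucine rows made up 71.3% of the long-arm signal, serine rows 24.3% and the selenocysteine row 4.41%. By anticodon, Leu-TAG held 20.7%, Leu-TAA 19.4%, Leu-CAA 16.8%, Ser-AGA 12.5%, Leu-AAG 7.73%, Ser-GCT 7.11%, Leu-CAG 6.65%, Ser-TGA 4.25%, Ser-CGA 0.42% and Ser-GGA 0.011%. These are normalized read counts that were not divided by length. A read could be counted under several rows, so the shares of anticodons with near-identical genes are uncertain.

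Of the 47 distinct rows, 44 (from 32 isodecoders) had a mean of at least 5 normalized read counts and were tested with limma on log2(value + 1). The 3 others were Leu-TAA-4-1 at 0.595 to 4.27, Ser-AGA-3-1 at 0 to 2.57 and Ser-GGA-1-1 at 0 to 9.60 normalized read counts over the 16 libraries. At an unadjusted p-value under 0.05, the threshold the study used, 9 of the 44 rows were higher in PS19 and 0 lower, that is, 20.5% of them. Over all 6024 features tested, 1.86% were called higher and 2.14% lower. DESeq2 on recovered reads called the same 9 rows, against 2.31% of all features called higher, and edgeR also called these 9. After Benjamini-Hochberg adjustment over all features none of the 44 was called by limma, DESeq2 or edgeR (smallest adjusted p = 0.9998, 0.0682 and 0.365), and limma called 0% of all features.

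All 9 called rows were leucine tRNAs with the anticodons CAG or CAA, and they belonged to 6 isodecoders, namely isodecoders 1, 2 and 3 of Leu-CAG and 1, 2 and 4 of Leu-CAA. With near-identical rows counted once, 5 of 27 sets were called. No serine row and not the selenocysteine row had an unadjusted p-value under 0.05. All 44 differences were above 0 on this scale, with 41 of them above 0 when values were scaled to the tRNA total and 31, with none of the 9 called, when the initial of the library code was a term. The median difference of the 44 rows was 0.20 (log2), beside -0.02 over all features, of which 46.8% were above 0.

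**Figure D1:**
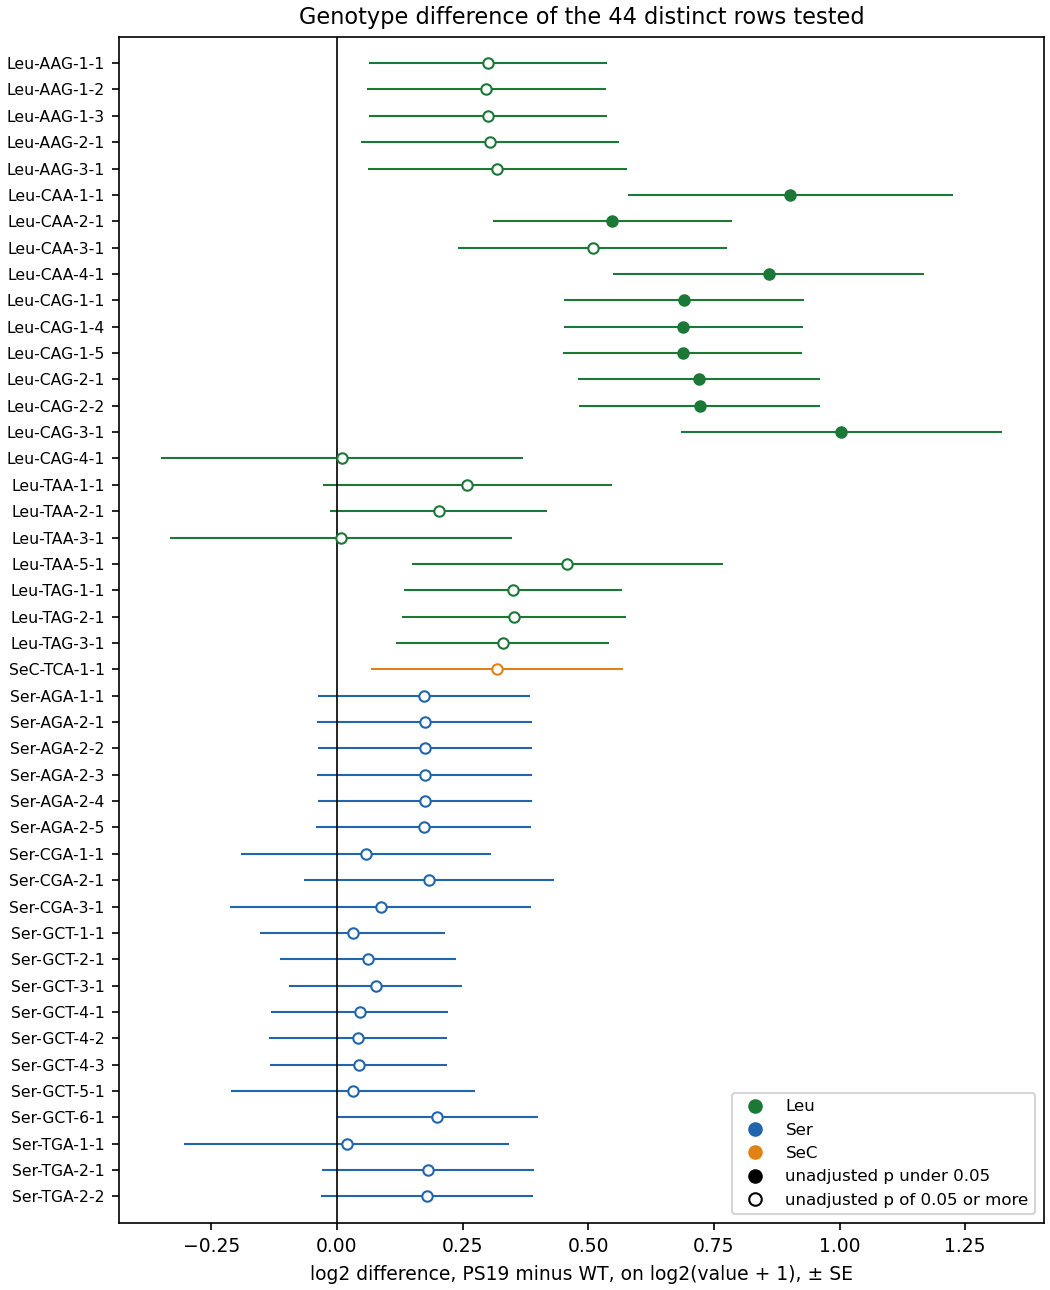
Difference between PS19 and WT (horizontal axis, log2 scale, ± SE, 8 libraries per genotype) for each of the 44 distinct long-arm rows tested, green for leucine, blue for serine and orange for selenocysteine, with filled points where the unadjusted limma p-value was under 0.05. The 9 filled points are Leu-CAG and Leu-CAA rows between 0.55 and 1.003, and all serine points lie at 0.20 or below. All 44 points are above 0, against 41 with values scaled to the tRNA total and 31, with none called, when the initial of the library code is a term.

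Leu-CAG tRNAs read CUG, the leucine codon used most often in mammalian genes. The largest difference was that of Leu-CAG-3-1, at 61.3 to 369 normalized read counts (median 129) in PS19 and 42.8 to 99.6 (median 82.4) in WT. PS19 5 and PS19 4 were highest at 369 and 332, 6 of 8 PS19 libraries were above every WT library, and PS19 7 and PS19 8 lay within the WT range. The log2 difference was 1.003 ± 0.32 (SE, n = 8 per genotype), with a two-sided exact permutation p of 0.00855 over libraries (limma adjusted p = 0.9998, DESeq2 adjusted p = 0.0682). Below, an exact p is always from this test. Leaving out any single library kept it between 0.82 and 1.19, but with the initial of the library code as a term it was 0.70 and was not called.

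Leu-CAG-1-1, which stands for 3 identical rows, lay between 181 and 484 (median 249) in PS19 against 118 to 257 (median 169) in WT. Every PS19 library was above the WT median, PS19 4 and PS19 5 were again the highest, and WT 4 was the highest WT library. Its log2 difference was 0.69 ± 0.24 (SE, exact p = 0.00528, limma adjusted p = 0.9998, DESeq2 adjusted p = 0.209). Leu-CAG-2-1 lay between 183 and 472 (median 245) in PS19 against 112 to 255 (median 166) in WT, a log2 difference of 0.72 ± 0.24 (SE, exact p = 0.00404, limma adjusted p = 0.9998). The rows Leu-CAG-1-4, Leu-CAG-1-5 and Leu-CAG-2-2 differed by 0.69, 0.69 and 0.72. All 5 distinct rows of isodecoders 1 and 2 formed 1 near-identical set, so they amount to a single observation.

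Leu-CAG-4-1 was far lower and did not follow the others. It lay between 5.12 and 37.8 (median 17.5) in PS19 against 9.90 to 29.2 (median 16.5) in WT, with PS19 libraries both highest and lowest. Its log2 difference was 0.01 ± 0.36 (SE, exact p = 0.980), an interval from -0.70 to 0.72. When single libraries were left out, the difference of Leu-CAG-4-1 ran from -0.16 to 0.22. Summed over distinct rows, Leu-CAG signal lay between 1003 and 2756 in PS19 against 637 to 1407 in WT, a log2 difference of 0.73 ± 0.23 (SE), given without a test as are all sums here.

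**Figure D2:**
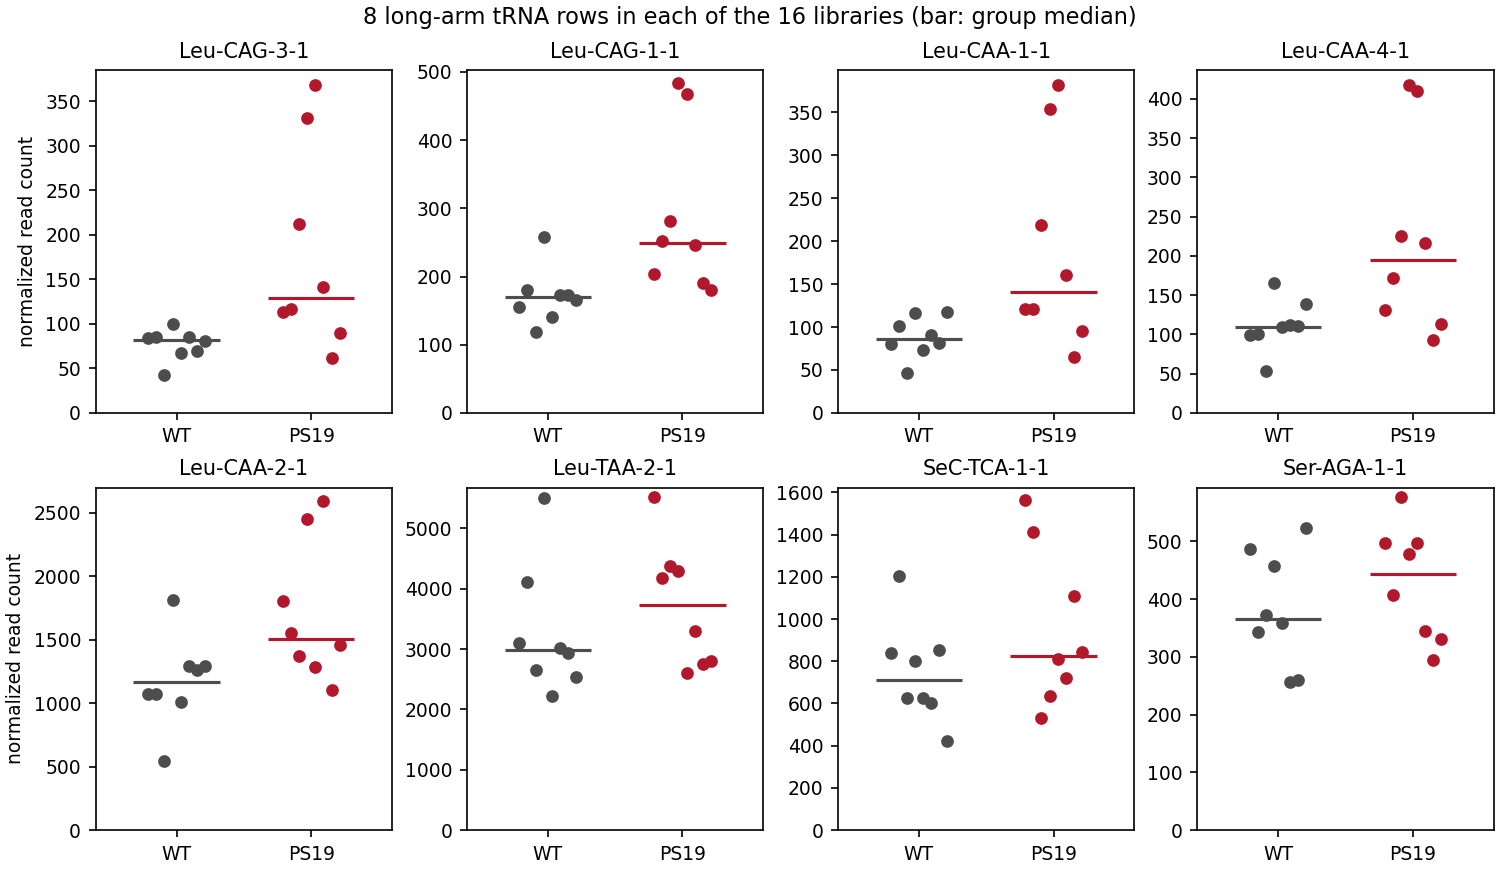
Normalized read counts (vertical axis, linear, from 0) of 8 long-arm rows in each WT (grey) and PS19 (red) library, with a bar at the group median. In Leu-CAG-3-1, 6 of 8 PS19 points lie above every WT point, with PS19 4 and PS19 5 highest, whereas the groups of Leu-TAA-2-1, SeC-TCA-1-1 and Ser-AGA-1-1 overlap over most of their range.

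Leu-CAA tRNAs read UUG, and their genes are the intron-bearing members of the group. Leu-CAA-1-1 lay between 65.4 and 382 (median 141) in PS19 against 46.2 to 118 (median 86.2) in WT. As in Leu-CAG-3-1, 6 PS19 libraries were above all WT libraries and PS19 5 and PS19 4 were highest. The log2 difference was 0.90 ± 0.32 (SE, exact p = 0.0214, limma adjusted p = 0.9998, DESeq2 adjusted p = 0.188). Leu-CAA-4-1 lay between 92.2 and 418 (median 194) in PS19 against 53.0 to 166 (median 110.0) in WT, a log2 difference of 0.86 ± 0.31 (SE, exact p = 0.0196, limma adjusted p = 0.9998), with 5 PS19 libraries above all WT libraries.

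The other Leu-CAA rows were far more abundant and differed less. Leu-CAA-2-1 lay between 1104 and 2595 (median 1503) in PS19 against 547 to 1812 (median 1166) in WT. Here PS19 6 and PS19 4 were the highest, only these exceeded every WT library, and WT 3 was the lowest of all. The log2 difference was 0.55 ± 0.24 (SE, exact p = 0.0291, limma adjusted p = 0.9998). It was not called by limma without PS19 4 (log2 difference 0.46), without PS19 6 (0.45), without WT 3 (0.40) or with values scaled to the tRNA total (0.53). Leu-CAA-3-1, the most abundant Leu-CAA row, lay between 1044 and 2806 (median 1595) in PS19 against 520.1 to 2064.5 (median 1220.1) in WT, and its log2 difference was 0.51 ± 0.27 (SE, exact p = 0.0895). Limma did not call it, but did so without PS19 7 (log2 difference 0.61), without WT 4 (0.63) or without WT 8 (0.59), and with the replicate number as a block (0.51). It was 0.34 without WT 3, 0.40 without PS19 6 and 0.41 without PS19 4.

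Leu-TAA tRNAs read UUA and included the most abundant long-arm row, Leu-TAA-2-1, with a mean of 3494 normalized read counts. It lay between 2600.1 and 5513 (median 3737) in PS19 against 2223 to 5503 (median 2977) in WT. Its 2 highest libraries were PS19 1 and WT 4, and the groups overlapped almost entirely (log2 difference 0.20 ± 0.22 SE, exact p = 0.333). The difference was 0.11 without PS19 1 and 0.32 without WT 4, and -0.40 with the initial of the library code as a term. Leu-TAA-5-1, which stands for 3 identical rows, lay between 77.3 and 222 in PS19 against 38.3 to 233 in WT, a log2 difference of 0.46 ± 0.31 (SE, exact p = 0.185). Without WT 2, its highest library, the difference was 0.65 and limma called it at the unadjusted threshold, and without WT 8 it was 0.29. Leu-TAA-1-1 and Leu-TAA-3-1 differed by 0.26 and 0.01. When single libraries were left out, these ran from 0.15 to 0.45 and from -0.14 to 0.22.

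Leu-TAG tRNAs, which read CUA, held a share of the long-arm signal close to that of Leu-TAA, which was above Leu-TAG in 7 of the 16 libraries. Leu-TAG-3-1 lay between 1447 and 3706 (median 2538) in PS19 against 1334 to 2569 (median 2008) in WT, and 4 PS19 libraries were above all WT libraries (log2 difference 0.33 ± 0.21 SE, exact p = 0.115). Without PS19 7, its lowest PS19 library, the difference was 0.44 and limma called it at the unadjusted threshold, whereas without any other single library it was not called and was as low as 0.24 (without PS19 1). The other Leu-TAG rows differed by 0.35 (exact p = 0.0963 and 0.115). When single libraries were left out, Leu-TAG-1-1 ran from 0.22 to 0.43 and Leu-TAG-2-1 from 0.22 to 0.44. Leu-AAG tRNAs, whose first anticodon base is modified to inosine so that they read CUU and CUC, differed by 0.30 to 0.32 over 5 distinct rows (exact p from 0.208 to 0.249). Leu-AAG-1-2, the most abundant of them, lay between 243 and 612 (median 331) in PS19 against 186 to 443 (median 244) in WT, and its highest value was that of PS19 4. Without PS19 4 its difference was 0.17 in place of 0.30, and without WT 8 it was 0.40.

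Serine rows showed differences no larger than 0.20 (log2), and their unadjusted limma p-values ran from 0.330 to 0.954. In Ser-AGA, whose tRNAs read UCU and UCC, the most abundant row was Ser-AGA-1-1, at 294 to 577 (median 443) in PS19 and 257 to 523 (median 365) in WT. The groups overlapped, with PS19 3 highest and WT 8 next (log2 difference 0.17 ± 0.21 SE, exact p = 0.349), and the difference was 0.099 without WT 6 and 0.25 without PS19 7. Ser-TGA-2-1, which reads UCA, lay between 295 and 574 in PS19 against 253 to 519.7 in WT, a log2 difference of 0.18 ± 0.21 (SE, exact p = 0.333) that was 0.10 without WT 6 and 0.25 without WT 8. Ser-CGA, which reads UCG, was scarce, and its most abundant row, Ser-CGA-2-1, lay between 19.7 and 77.1 in PS19 against 22.6 to 46.3 in WT (log2 difference 0.18 ± 0.25 SE, exact p = 0.460). Without PS19 1, its highest library, the difference was 0.028, without PS19 5 it was 0.30, and with the initial of the library code as a term it was -0.0012.

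Ser-GCT tRNAs read the separate serine codon box AGU and AGC. Ser-GCT-3-1, the most abundant, lay between 191 and 282 (median 218) in PS19 against 171 to 257 (median 217) in WT. Its log2 difference was 0.08 ± 0.17 (SE, exact p = 0.434), with an interval from -0.26 to 0.42. Without single libraries it ran from 0.031 (without WT 3) to 0.12 (without WT 4), and with the initial of the library code as a term it was -0.068. Within the 8 distinct Ser-GCT rows the differences ran from 0.03 to 0.20. Leaving out single libraries turned several of them negative, as low as -0.047 in Ser-GCT-1-1. A p-value above the threshold does not show that serine tRNA levels were the same in both genotypes.

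The selenocysteine tRNA had 1 row, SeC-TCA-1-1. It lay between 531 and 1566 (median 826) in PS19 against 425 to 1206 (median 713) in WT. The highest libraries were PS19 1, PS19 2 and WT 2, whereas PS19 4 and PS19 5, the highest for Leu-CAG-3-1, were at 633 and 809. The log2 difference was 0.32 ± 0.25 (SE, exact p = 0.221, limma adjusted p = 0.9998), with an interval from -0.17 to 0.81. It was 0.20 without PS19 1 and 0.43 without WT 2, and with the initial of the library code as a term it turned to -0.14.

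Summed over distinct rows, long-arm signal was 21509 ± 4396 normalized read counts (SD, n = 8) among PS19 libraries against 17063 ± 3351 (SD, n = 8) among WT libraries. PS19 libraries ranged from 14706 to 28468 and WT libraries from 12387 to 23788, so the groups overlapped, and 2 PS19 libraries exceeded every WT library. The log2 difference of the sum was 0.33 ± 0.15 (SE), that of leucine rows 0.40 ± 0.18 and that of serine rows 0.13 ± 0.15. Counting near-identical rows a single time gave 0.35, 0.38 and 0.095 for these sums. With the initial of the library code as a term they were 0.06, 0.07 and 0.05. In bulk tissue, fewer cells of a type and less RNA per cell cannot be told apart for any of these levels.

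The 305 distinct rows of tRNAs with a short arm that were tested were described in the same way. At the same unadjusted threshold 4 were higher in PS19 (3 of His-GTG-2, and Tyr-GTA-6-1) and 1 was lower (Lys-TTT-3-1), that is, 1.64% of them. Their median difference was 0.03, and 167 of 305 were above 0. Among amino acids, leucine had 39.1% of its 23 tested rows called and histidine 3 of 5, which are copies of 1 isodecoder with differences of 0.39 each. Median differences above that of leucine (0.35) were found for aspartate (0.39), histidine (0.39) and tryptophan (0.45), though 12 of the 15 aspartate rows are copies of Asp-GTC-1, while the median for cysteine was -0.28. The difference between long-arm and short-arm rows was not tested, since rows may share reads.

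**Figure D3:**
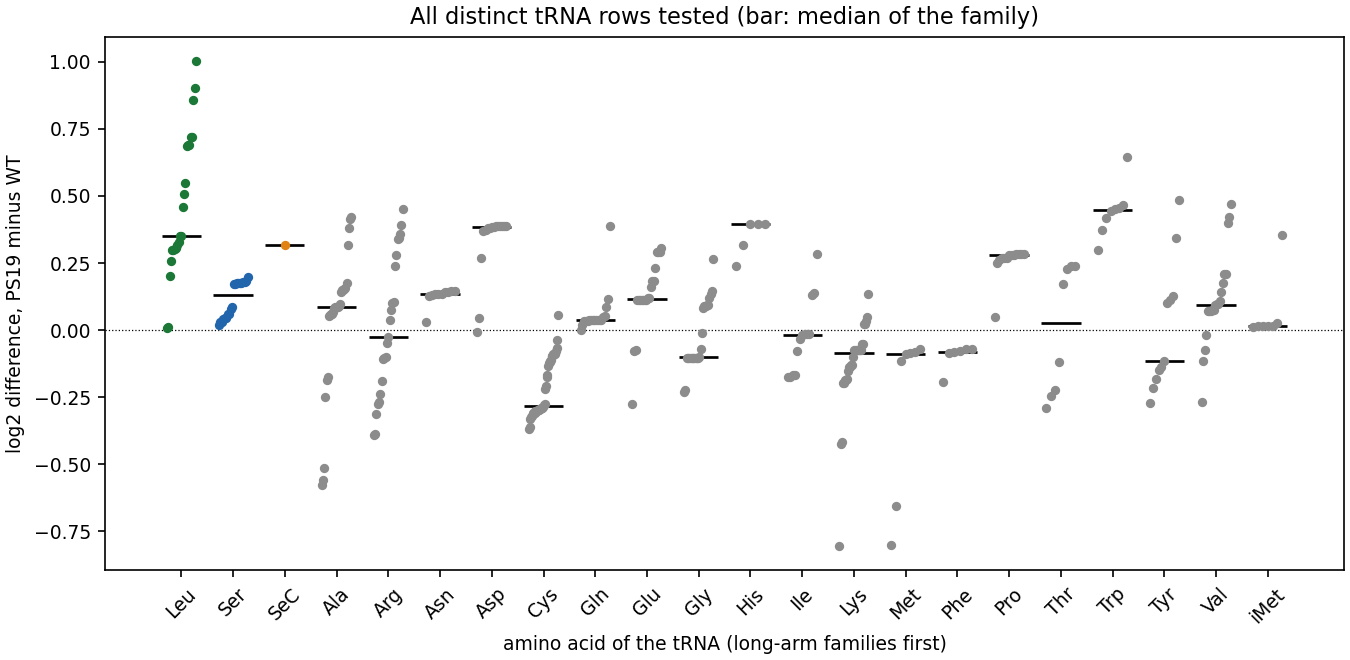
Log2 difference between PS19 and WT (vertical axis) of every distinct tRNA row tested, by amino acid, with a bar at the family median and the long-arm families first in green (leucine), blue (serine) and orange (selenocysteine). Leucine spans 0.01 to 1.003, serine 0.02 to 0.20, and short-arm families lie on both sides of 0 with medians from -0.28 to 0.45.

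How alike rows were over the 16 libraries was described by Pearson's r of log2(value + 1), without a test, since rows share libraries and depth and may share reads. Leu-CAG-3-1 was most like Leu-CAA-1-1 (r = 0.987), of another anticodon, followed by Leu-CAA-4-1 (r = 0.964) and Leu-CAG-1-1 (r = 0.949). Within genotypes these values were 0.983, 0.946 and 0.917. Lower values were found with Leu-CAA-2-1 (r = 0.624, and 0.445 within genotypes), Leu-CAG-4-1 (0.142 and 0.175) and SeC-TCA-1-1 (-0.066 and -0.353). Leu-CAA-2-1 and Leu-CAA-3-1 followed each other (r = 0.971), as did Leu-TAG-1-1 and Leu-TAG-2-1 (r = 0.998).

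The largest near-identical set held 8 distinct serine rows of both anticodons AGA and TGA. Ser-AGA-2-1 and Ser-TGA-2-1 had r = 0.998, and the ratio of their values lay between 0.964 and 1.02 in every library. Their recovered reads ran from 252 to 556 and from 253 to 557. The 8 rows could not be told apart by their counts. Ser-TGA-1-1, with a mean of 14.95 normalized read counts, was less like Ser-TGA-2-1 (r = 0.560) although it carries the same anticodon.

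**Figure D4:**
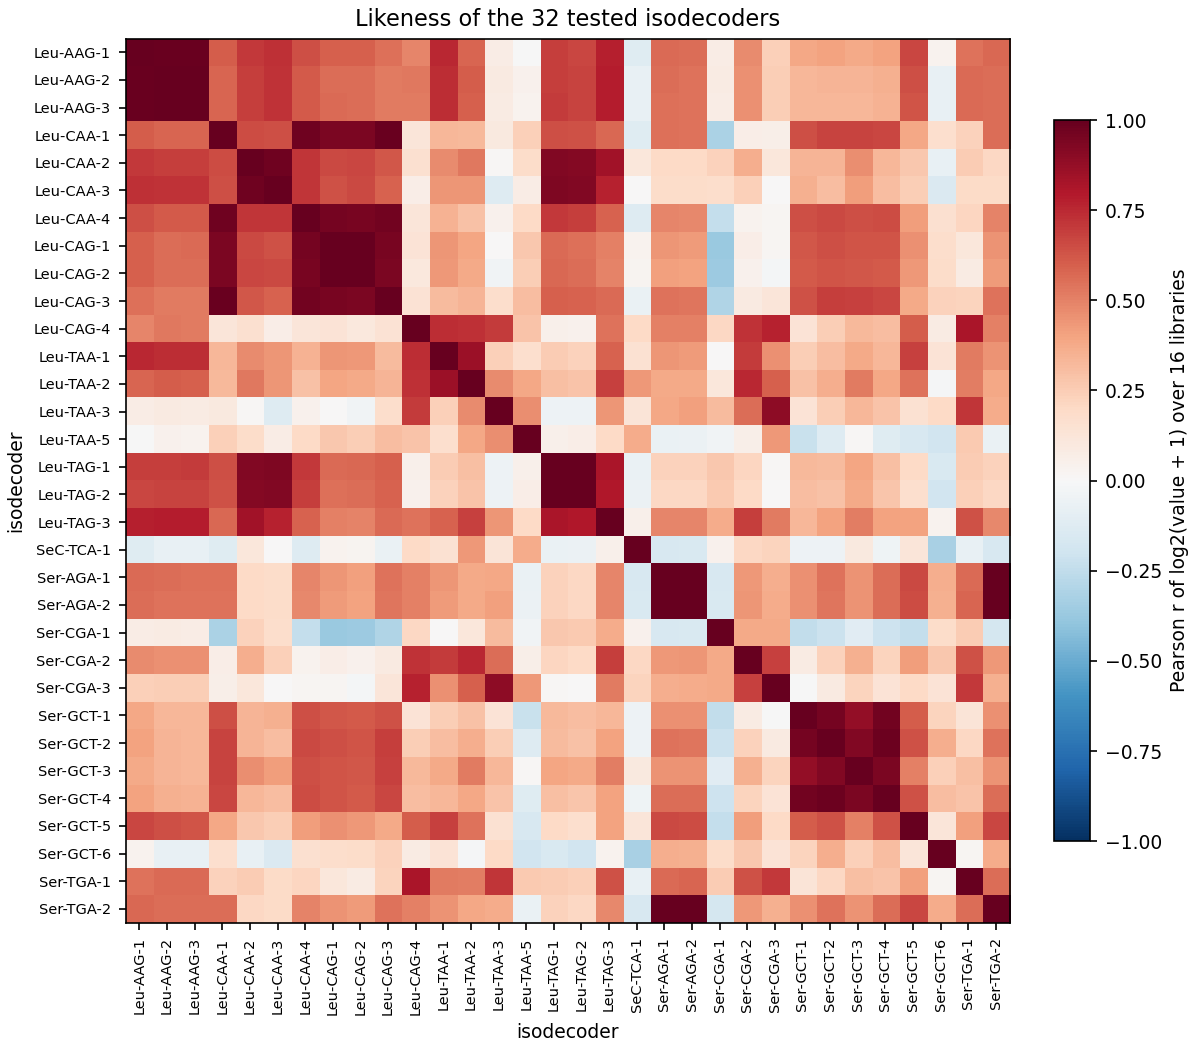
Pearson's r of log2(value + 1) over the 16 libraries between all pairs of the 32 tested isodecoders, both axes in the same order and coloured from -1 (blue) to 1 (red). Leu-CAG-1, Leu-CAG-2 and Leu-CAG-3 with Leu-CAA-1 and Leu-CAA-4 form a block of high r, Ser-AGA-1, Ser-AGA-2 and Ser-TGA-2 form another, and SeC-TCA-1 has r near 0 with most isodecoders.

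Genotype and the initial of the library code overlapped strongly, since only WT 2 and WT 4 shared the initial G with the PS19 libraries. Leu-CAG-3-1 was at 85.6 and 99.6 in those WT libraries, 66.8 to 85.0 in the 4 WT libraries with F and 42.8 and 80.2 in those with A. Leu-CAG-1-1 was at 181 and 257 in the WT libraries with G, 141 to 173 with F and 118 and 166 with A. In both rows the WT libraries with G were the highest of their genotype. This was not so in the called Leu-CAA rows. Leu-CAA-1-1 was at 102 and 117 in the WT libraries with G, 73.1 to 91.0 with F and 46.2 and 118 with A. Leu-CAA-4-1 was at 99.8 and 166 with G, 98.7 to 112 with F and 53.0 and 138 with A, and Leu-CAA-2-1 at 1069 and 1812 with G, 1006 to 1295 with F and 547 and 1290.4 with A. Within the initial G the PS19 and WT ranges overlapped in all 5 rows.

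With the initial as a term in the fit, none of the 9 rows was called by limma, and over all features 124 had an unadjusted p-value under 0.05. All 9 differences stayed above 0, between 0.23 and 0.70 (p from 0.192 to 0.547), and 31 of the 44 rows were above 0. Among rows that were not called, Leu-CAA-3-1 was then at 0.13, the Leu-AAG rows at 0.06 to 0.13, Leu-CAG-4-1 at -0.47 and Leu-TAA-1-1 at -0.47. What the initial stands for is unknown, and its part in the genotype difference cannot be told apart with 2 WT libraries.

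**Figure D5:**
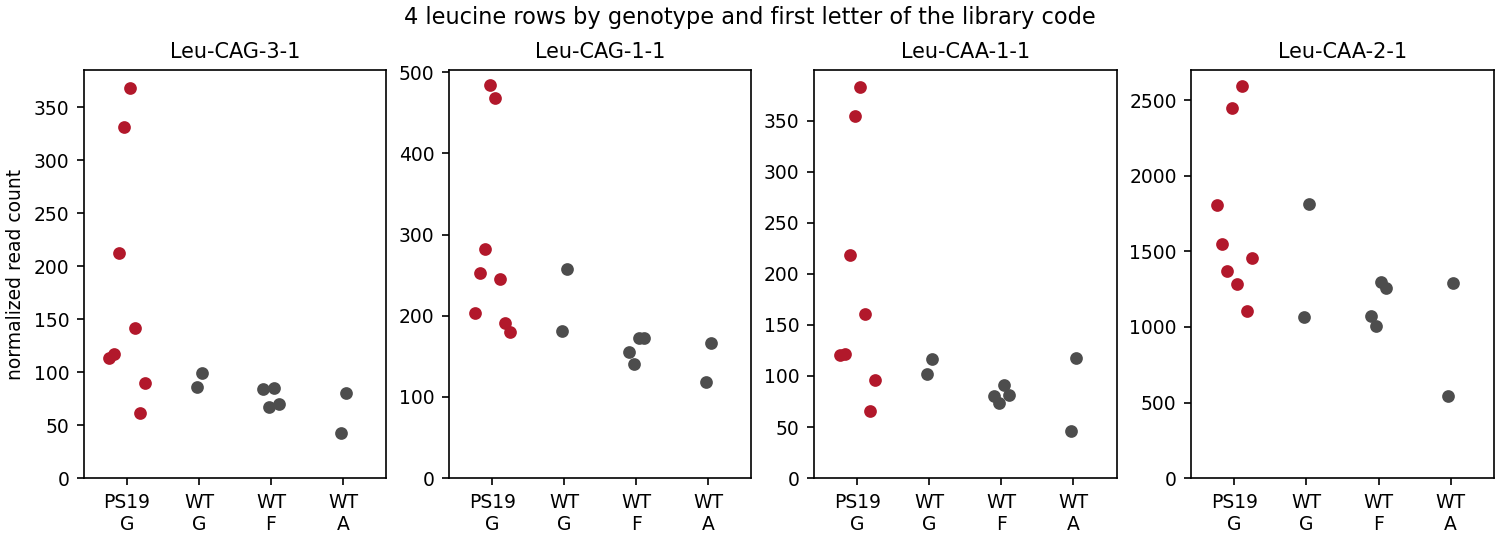
Normalized read counts (vertical axis, linear, from 0) of 4 leucine rows, with libraries split by genotype and by the initial of the library code (PS19 in red, WT in grey). For Leu-CAG-3-1 the 2 WT libraries with the initial G, at 85.6 and 99.6, lie above the other WT libraries and within the PS19 range of 61.3 to 369.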

How the data were processed

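Small RNA was isolated from frozen prefrontal cortex, and libraries were made with the NEBNext small RNA kit and read single-end. Per the methods, the authors aligned reads with STAR (2.5.3a in the submitters' processing notes) within COMPSRA and compared genotypes with DESeq2 (1.42.1). The notes list the build mm10. How reads that match several tRNA genes were counted was not given in the sources used here. The deposited values are a signal normalized by the authors, who divided the read counts of each library by 1 size factor. The table also holds the authors' log2 fold changes with errors, base means, Wald statistics, p-values and adjusted p-values, which were not used. No other column of values was left out (0).

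Values were tested as log2(value + 1) with limma 3.58.1 (lmFit, eBayes with trend) in R 4.3.3, two-sided, with genotype as the only term, over the 6024 features with a mean of at least 5, and adjusted by Benjamini-Hochberg. Differences are on that scale, which understates changes of low rows. Intervals are normal approximations from the SE at a two-sided level of 0.05, so they are somewhat narrow. Member rows with identical values were counted once, and rows with r of at least 0.99 and means within 2-fold were called near-identical. Reads were recovered by division by each library's smallest value, with 100% of values whole in each library within a relative tolerance of 1e-06. In WT 4 and WT 6 a read was worth nearly 1, so that recovery there is weaker evidence. DESeq2 1.42.0 and edgeR 4.0.16 on these reads were alternatives, and DESeq2 called 15 features after adjustment. Recovered depth was 13.2 M to 23.1 M reads per library, and these are assignments of reads, not molecules. Single rows were also compared by an exact permutation test over all assignments of 8 and 8 libraries (scipy 1.17.1). The fit was tested on simulated data.

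Libraries were grouped by the genotype label, and p-values measure the spread between mice. Chi-square per degree of freedom was 17.1 to 282.4 over the 56 pairs of libraries within genotypes, so each library counted as 1 sample. The rows named are the most abundant distinct row of each anticodon, the 5 rows with the smallest p-values among those higher in PS19 (none was lower), and any with an adjusted p under 0.05. Others (Leu-CAA and Leu-CAG rows, Leu-TAA-5-1 and rows of the likeness comparison) were named after their values were seen. The members and lists were chosen with earlier results of these data known. Alternatives were DESeq2, edgeR, array weights, the code initial of each library as a term, scaling to the library or the tRNA total, minimum means of 20 or none, pseudocounts of 0.5 and 5, the replicate number as a block and leaving out each library. Sequences of serine tRNA genes are not reported here.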

Additional observations from a re-analysis of the deposited data

Results flagged for a closer look

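In 6 of 44 groups of 8 values examined, 1 library stood far from the other 7 by Dixon's test. Chance gives about 2.2 for independent groups, but near-identical rows are not independent, so these counts are not comparable. For Leu-AAG-1-2, PS19 4 was at 612.1 normalized read counts. The 5 other cases were WT 4 in the near-identical Leu-CAG rows and amount to 1 observation, at 257.4 in Leu-CAG-1-1, 256.4 in Leu-CAG-1-4 and in Leu-CAG-1-5, 255.4 in Leu-CAG-2-1 and 252.4 in Leu-CAG-2-2. WT 4 carries the initial G in its library code, as do WT 2 and every PS19 library. Without WT 4, 10 of 44 rows were higher in PS19 at an unadjusted p-value under 0.05, and without PS19 4, 8 were. The shares of all features called without these libraries are not given here.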

How the results depend on the processing

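The number of distinct rows with an unadjusted limma p-value under 0.05 was 9. It was 0 with the code initial of each library as a term and 5 with near-identical rows counted once. The number ran from 8 to 11 when single libraries were left out and from 8 to 12 under the other alternatives, and after adjustment it was 0 under every alternative run. Apart from DESeq2, the shares of all features called higher in those fits are not given here. With the initial as a term, the log2 difference turned to -0.14 for SeC-TCA-1-1, -0.40 for Leu-TAA-2-1, -0.0012 for Ser-CGA-2-1 and -0.068 for Ser-GCT-3-1. When single libraries were left out, the summed difference ran from 0.27 to 0.40 for all long-arm rows, from 0.31 to 0.48 for leucine and from 0.08 to 0.20 for serine, and that of SeC-TCA-1-1 from 0.20 to 0.43. Values of fold changes for rows of few reads are the least precise, and 3 rows were too low to test.

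The replicate numbers were not found to pair the libraries. The correlation of the deviations of libraries with the same number ran from 0.0446 to 0.456, 6 of 8 were over 0.1, and 2 of 8 libraries correlated best with their own number. With the replicate number as a block in the fit, 10 rows had an unadjusted p-value under 0.05. The share of all features called in that fit is not given here. Every replicate number occurs in both genotypes, so the block could not change the differences, only the errors and p-values of rows. The differences were 0.33, 0.40 and 0.13 for the sums of all long-arm, leucine and serine rows, and 0.32 for SeC-TCA-1-1, as without the block. Leu-CAA-3-1 gained a call under the block, as it did without PS19 7, WT 4 or WT 8.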
